A study of Mus musculus with 2 samples.

Results

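NADPH oxidases are described here at the level of their mRNAs in mouse skin wounds. The 9 genes were chosen by symbol. They are Cybb, Cyba, Ncf1, Ncf4 and Rac2, which encode 5 subunits of the phagocyte oxidase, and Nox1, Nox4, Duox1 and Duox2, which encode oxidases of other tissues. All 9 were found among the 24346 gene symbols listed in both libraries. The 2 libraries came from dorsal skin wounds of C57BL/6J pups, 1 of genotype WT and 1 of genotype PU.1 KO, taken 24 h after injury. The pups were littermates and were 1 day old when wounded. The PU.1 KO pups lack PU.1, the transcription factor encoded by Spi1. The study's introduction describes them as having no neutrophils, macrophages, mast cells or T cells. How many pups went into a library was not stated there. The wounds are called incisional in the methods and excisional in the design text.

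NADPH oxidases carry electrons from cytosolic NADPH across a membrane to oxygen and so make superoxide or hydrogen peroxide. In neutrophils and macrophages the catalytic subunit gp91phox, encoded by Cybb, sits in the membrane with p22phox, encoded by Cyba. On activation cytosolic proteins, p47phox (Ncf1) and p40phox (Ncf4) among them, and the small GTPase Rac2 join them, and the burst of superoxide is used to kill microbes. Nox1 and Nox4 are catalytic subunits that also need p22phox, while Duox1 and Duox2 are dual oxidases of epithelia that release hydrogen peroxide and need a maturation factor in its place. Peroxide made at a wound edge is also known as an early signal to leukocytes.

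Expression was measured by bulk mRNA sequencing, and the deposited unit is FPKM, the fragments of a gene scaled to its exon length and to library depth. In genes with 1 transcript the low values moved in steps of whole reads, from which the WT library was put at 1.38e+07 fragments and the other at 1.58e+07. Read numbers given for single genes are estimates from these steps and transcript lengths. With 1 library per genotype there is no spread between animals and no test. The 95% intervals are exact binomial (Clopper-Pearson) intervals on the estimated reads of the 2 libraries, and they cover counting error only. Spi1 was at 35.4 FPKM in WT against 1.45 FPKM in PU.1 KO, 4.12% of the WT level. Ddx3y, Eif2s3y, Kdm5d and Uty of the Y chromosome were listed at 0 only for PU.1 KO, and Xist was listed at 0 only for WT, with 9.48 FPKM in the other library. Genotype and the sex of the pups therefore cannot be told apart in any value below, which includes Cybb and Nox1 on the X chromosome.

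**Figure D1:**
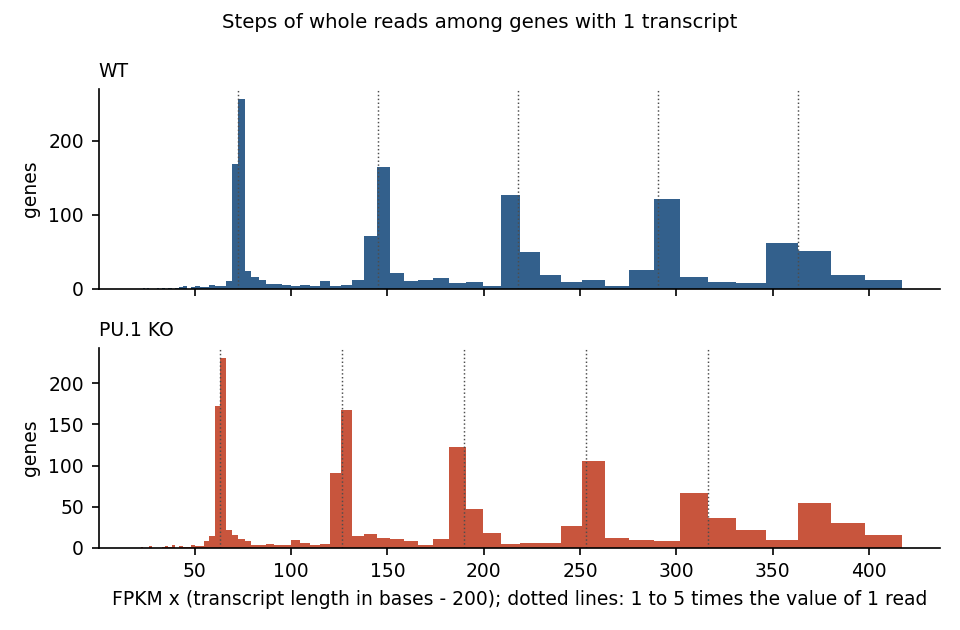
Number of genes with 1 RefSeq-linked transcript (vertical axis) by the product of FPKM and transcript length less 200 bases (horizontal axis), for the WT library above and the PU.1 KO library below. The genes gather at multiples of the worth of 1 read, 72.7 for WT and 63.3 for PU.1 KO, drawn as dotted lines from 1 to 5 reads.

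All 5 phagocyte subunits were lower in the PU.1 KO wound, and 3 of them were listed at 0 there. The threshold for a lower or higher gene was a 2-fold ratio of the libraries, with values below 0.1 FPKM raised to 0.1. By this rule 4.34% of all listed genes were lower and 2.32% were higher. Among genes of at least 1 FPKM in 1 or both libraries, to which all 5 subunits belong, 4.45% were lower and 1.71% higher. The median log2 ratio (PU.1 KO over WT) of the 5 was −7.47 with values raised to 0.1 FPKM and −7.14 with the genes listed at 0 set to the limit of 3 reads, against −0.00 over all genes of at least 1 FPKM. Fewer cells of a type and less RNA per cell cannot be told apart in bulk tissue.

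The membrane subunits differed from each other in level and in what was left. Cybb (chromosome X, 9435252 to 9487766 in GRCm38, the assembly of mm10) was at 3.76 FPKM in the WT wound, about 235 reads, and was listed at 0 in the PU.1 KO wound. A count of 0 allows up to 3 reads, or 0.0417 FPKM, so that Cybb was at least 90.1-fold lower with the WT level as measured. Cyba (chromosome 8, 122424771 to 122432940) was the most abundant of the 9 genes, at 122 FPKM in the WT wound against 31.0 FPKM without PU.1. It kept 25.3% of its WT level, a WT over PU.1 KO ratio of 3.95 with an interval of 3.44 to 4.54 from about 917 and 267 reads. In the WT wound Cyba stood at 32.6 times the level of Cybb, both per kilobase.

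The cytosolic subunits lay close together in the WT wound and were at or near 0 in the PU.1 KO wound. Ncf1 (chromosome 5, 134220053 to 134229628) was at 22.2 FPKM in WT against 0.0749 FPKM in PU.1 KO, about 781 and 3 reads. Its ratio of 296 had an interval of 102 to 1453 with the longest of its transcripts, and of 62.4 to 1879 with the shortest. Ncf4 (chromosome 15, 78244164 to 78262582), whose product binds phosphoinositides of the phagosome, was at 21.2 FPKM in WT, about 368 reads, and was listed at 0 in PU.1 KO, at least 141-fold lower. Rac2 (chromosome 15, 78559169 to 78572783), the GTPase of blood cells, was at 17.7 FPKM in WT, about 691 reads, and was listed at 0 in PU.1 KO, at least 264-fold lower. These bounds take the WT level as measured. With the counting error of both libraries the intervals began at 72.6-fold for Cybb, 114-fold for Ncf4 and 215-fold for Rac2. The whole interval of Cyba thus lay below that of Ncf1 and below those of Cybb, Ncf4 and Rac2. Some Ncf1 exons share 408 bases with those of Gtf2ird2 on the opposite strand, a gene at 2.76 and 3.12 FPKM. The libraries were stranded, but whether the counting used strand is not stated.

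**Figure D2:**
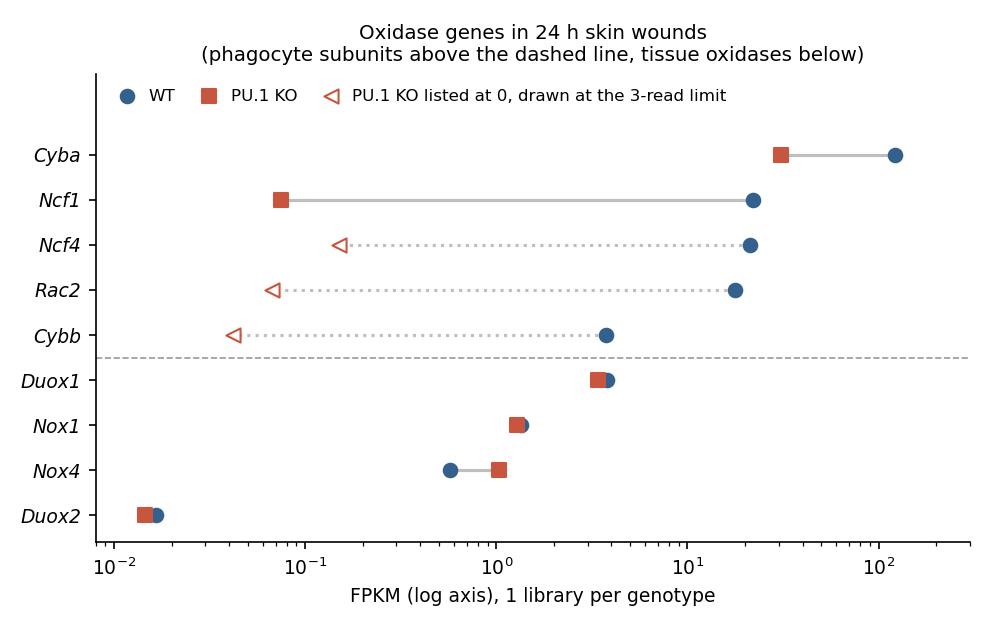
FPKM of the 9 oxidase genes on a log axis, with the WT library as blue circles and the PU.1 KO library as red squares, 1 library each. Open triangles stand at the limit of 3 reads for Ncf4, Rac2 and Cybb, listed at 0 in the PU.1 KO library, and of the phagocyte subunits only Cyba stays above 1 FPKM there, at 31.0.

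Rac2 has the close relatives Rac1, which is found in nearly all cells, and Rac3. Rac1 was at 212 FPKM in WT against 203 FPKM in PU.1 KO, and Rac3 at 9.57 and 7.76 FPKM. Rac2 made up 7.40% of the summed FPKM of the 3 genes in the WT wound, where Rac1 was at 12.0 times its level. In the PU.1 KO library Rac2 was listed at 0 beside Rac1 at 203 FPKM, so that no reads of Rac1 were counted for Rac2 there.

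**Figure D3:**
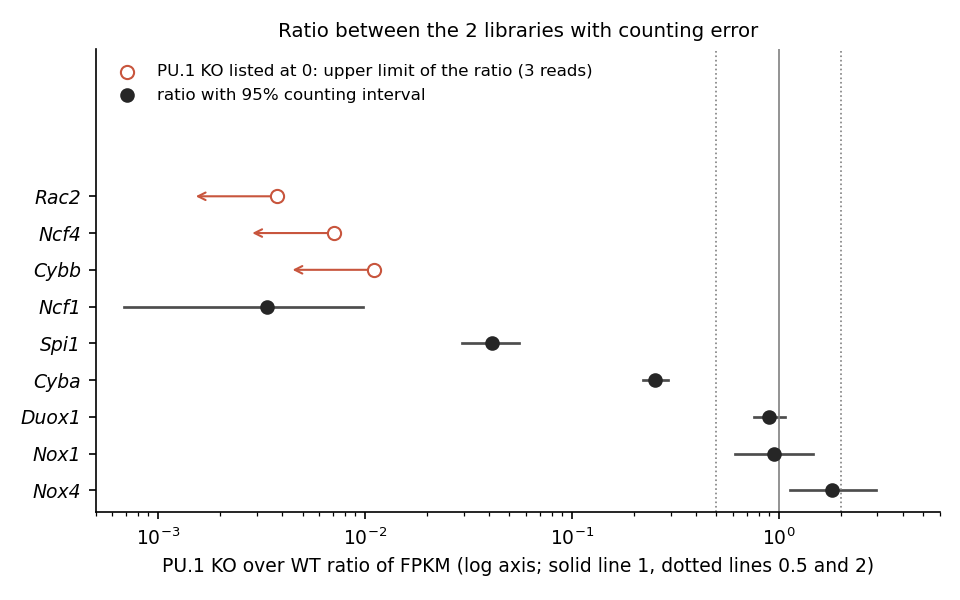
PU.1 KO over WT ratio of FPKM on a log axis for the 9 oxidase genes less Duox2 and for Spi1, with 95% counting intervals as bars. Open circles with arrows are upper limits for genes listed at 0 in the PU.1 KO library; Cyba at 0.253 lies between these genes and Duox1, Nox1 and Nox4, whose ratios are 0.900, 0.950 and 1.80.

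Leukocyte markers moved with the phagocyte subunits. Their counts stand beside the 4.34% of all listed genes that were lower. Of 7 pan-leukocyte markers all 7 were lower, and their summed level went from 321 to 51.2 FPKM, with Ptprc (CD45) and Coro1a listed at 0 and 47.0 of the remaining 51.2 FPKM due to Arhgdib. Cd52 was at 54.3 and 0.217 FPKM, Lcp1 at 41.5 and 3.24 FPKM, Laptm5 at 36.5 and 0.659 FPKM, and Cd53 at 33.5 and 0.0968 FPKM. Of 11 macrophage markers 9 were lower, with sums of 541 and 8.42 FPKM, and Adgre1, C1qa, C1qb, C1qc and Fcgr1 were listed at 0. The 2 not counted were Mertk, at 3.87 and 2.68 FPKM, and Cx3cr1. Cx3cr1 was listed at 0 in PU.1 KO but was at only 0.0813 FPKM in WT, about 4 reads. The lysozyme gene Lyz2 was at 85.5 and 0.520 FPKM, Mrc1 at 53.6 and 0.417 FPKM, and Cd68 at 43.9 and 4.12 FPKM. Of 11 neutrophil markers 9 were lower, with sums of 12589 and 3676 FPKM. The 2 not counted were Cxcr2, at 11.2 and 7.17 FPKM, 63.8% of its WT level, and Mpo, at 0.185 and 0.0805 FPKM. Csf3r, Ngp, Ltf, Retnlg and Mmp8 were listed at 0, Camp was at 77.6 and 23.9 FPKM, and S100a8, at 6600 and 2129 FPKM, and S100a9, at 5311 and 1516 FPKM, made up most of both sums. Of 8 lymphocyte markers 5 were lower, with sums of 4.54 and 0.317 FPKM. Without S100a8 and S100a9, which keratinocytes are also known to express, the neutrophil sum went from 678 to 31.3 FPKM. Camp held 23.9 and Cxcr2 7.17 of these 31.3 FPKM. The share that Cyba kept, 25.3%, was above the 1.56% of the macrophage sum and the 4.61% of the neutrophil sum without S100a8 and S100a9, and below the 29.2% of the neutrophil sum with them. The part of each cell type in the Cyba level was not tested.

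The promoters of these genes were searched for GAGGAA, a form of the core of the sites that PU.1 is known to bind, since Spi1 is the deleted gene. The windows are those of RefSeq on GRCm38.p6, 250 bases before to 50 after each start. They hold 7 of the 9 genes, all but Ncf4 and Rac2. On either strand the letters were found in 1 of the 3 phagocyte subunits with a window, Cybb, and in 1 of the 4 tissue oxidases, Nox1. They are in 28.3% of all 32851 promoter windows of this length. The longer form GAGGAAGT, each of whose matches is also a match of the shorter, is in 3.2% of all windows and in none of the 7. The 3 phagocyte promoters are shown with that of Nox1, the other gene with a match, from 250 bases before the start to 25 after it, 5′ to 3′ in the direction of the gene. Capitals mark the match, which in Cybb is on the opposite strand, at bases 10 to 15 of the transcript, and in Nox1 on the gene's own strand, from 23 to 18 bases before the start.
Cybb, chrX:9469300-9469574, minus strand: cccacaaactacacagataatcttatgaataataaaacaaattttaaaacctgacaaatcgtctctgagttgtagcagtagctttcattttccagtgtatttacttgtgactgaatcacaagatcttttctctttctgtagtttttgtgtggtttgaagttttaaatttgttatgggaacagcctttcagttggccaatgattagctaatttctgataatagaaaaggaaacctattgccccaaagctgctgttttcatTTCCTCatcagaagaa
Cyba, chr8:122432916-122433190, minus strand: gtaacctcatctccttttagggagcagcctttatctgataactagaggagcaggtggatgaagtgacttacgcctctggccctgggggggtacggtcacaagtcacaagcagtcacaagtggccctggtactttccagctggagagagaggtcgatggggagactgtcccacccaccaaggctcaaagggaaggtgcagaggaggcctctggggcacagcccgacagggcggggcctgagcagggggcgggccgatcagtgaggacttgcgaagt
Ncf1, chr5:134229601-134229875, minus strand: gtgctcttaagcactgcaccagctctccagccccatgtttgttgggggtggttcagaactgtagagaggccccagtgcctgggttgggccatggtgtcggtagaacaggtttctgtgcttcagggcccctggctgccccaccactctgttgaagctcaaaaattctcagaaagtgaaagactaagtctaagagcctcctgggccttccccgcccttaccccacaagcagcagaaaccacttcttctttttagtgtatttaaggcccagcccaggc
Nox1, chrX:134111830-134112104, minus strand: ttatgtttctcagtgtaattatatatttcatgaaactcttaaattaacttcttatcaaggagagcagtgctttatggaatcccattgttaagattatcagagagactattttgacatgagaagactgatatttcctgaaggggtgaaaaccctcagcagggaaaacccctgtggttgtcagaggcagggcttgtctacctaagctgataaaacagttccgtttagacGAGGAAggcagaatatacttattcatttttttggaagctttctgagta
The starts used for Cybb and Nox1 lie within the gene spans given here, which reach to starts farther upstream. A match is a description of the letters and not a binding site, and other forms of the site and regions outside the window were not searched.

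None of the 4 tissue oxidases was counted as lower or higher, and their summed level was 5.72 FPKM in WT against 5.73 FPKM in PU.1 KO. Duox1 (chromosome 2, 122313010 to 122347972), an oxidase known from epidermis, airway and thyroid, was the most abundant at 3.78 and 3.41 FPKM, about 264 and 273 reads. Its PU.1 KO over WT ratio was 0.900 with an interval of 0.757 to 1.07. Nox1 (chromosome X, 134086421 to 134137711), best known from colon epithelium, was at 1.35 and 1.28 FPKM, about 44 and 48 reads, a ratio of 0.950 with an interval of 0.618 to 1.46. Both intervals hold 1 and leave out a 2-fold change in either direction. For Nox1, 399 bases of exon are shared with Cstf2 on the opposite strand, a gene at 12.3 and 11.9 FPKM, and their reads cannot be told apart if the counting did not use strand.

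Nox4 (chromosome 7, 87244430 to 87398710), an oxidase of kidney, vessels and fibroblasts that makes hydrogen peroxide without cytosolic activators, was the one member with a higher value in the PU.1 KO wound. It was at 0.570 FPKM in WT against 1.03 FPKM in PU.1 KO, about 28 and 58 reads. The ratio of 1.80 did not reach 2, and its counting interval of 1.13 to 2.94 holds 2 but not 1. Markers of several other cell types were also above WT in this library, by sums of 113% of WT for 8 keratinocyte genes (12659 and 14357 FPKM), 118% for 7 fibroblast genes (2717 and 3194 FPKM), 111% for 6 endothelial genes (171 and 190 FPKM) and 172% for 6 skeletal muscle genes (7358 and 12620 FPKM). In the skeletal muscle list 2 genes, Myh8 and Myh3, were counted as higher, against 2.32% of all listed genes. In the other 3 lists none was counted in either direction, near the share over all listed genes, and none was listed at 0. The 6 smooth muscle genes had sums of 536 and 829 FPKM, of which Des, which skeletal muscle also expresses, held 396 and 699. Despite the higher sum, 4 of these 6 genes were below their WT level, and their median log2 ratio was −0.21. Of the 6 endothelial genes 1 was below its WT level. The part of these tissues in the Nox4 value was not tested. Duox2 (chromosome 2, 122279246 to 122298740) was at 0.0166 and 0.0144 FPKM, the worth of about 1 read in each library, and no change could be detected at this depth.

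Among the catalytic subunits, the order of levels in the WT wound was Duox1 and Cybb, at 3.78 and 3.76 FPKM, then Nox1, Nox4 and Duox2. The exact Poisson intervals of Duox1 (3.34 to 4.27 FPKM) and Cybb (3.29 to 4.26 FPKM) overlapped, so that no order between them can be given, while those of Nox1 (0.983 to 1.82 FPKM) and Nox4 (0.381 to 0.828 FPKM) did not overlap. Of the other phagocyte subunits, Ncf1 (20.6 to 23.8 FPKM) and Ncf4 (19.1 to 23.4 FPKM) also overlapped. These intervals leave out the error of the transcript lengths. Cybb made up 39.6% of the summed FPKM of these 5 genes in WT against none in PU.1 KO, where the sum went from 9.47 to 5.73 FPKM and Duox1 made up 59.5%. For Cyba, the partner of Cybb, Nox1 and Nox4, the level was 21.6 times the summed level of these 3 genes in the WT wound and 13.5 times in the PU.1 KO wound.

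Of the 12 genes reported here for other oxidase subunits, partners and maturation factors, none was counted as lower or higher. This is near the share over all listed genes, 4.34% lower and 2.32% higher. The median log2 ratio of the 7 of at least 1 FPKM in 1 or both libraries was −0.12. BC017643, an older symbol of Cybc1, whose product is needed for a stable gp91phox and p22phox pair, was at 14.6 and 13.4 FPKM. Duoxa1, the maturation factor of Duox1, was at 13.2 and 12.2 FPKM, 3.47 and 3.58 times the level of Duox1, while Duoxa2, that of Duox2, was listed at 0 in both. The Nox1 organizer Noxo1 was at 0.391 and 0.402 FPKM, about 11 and 13 reads. The Nox1 activator Noxa1 was listed at 0 in WT and was at 0.0430 FPKM in PU.1 KO, about 1 read. Nox3, the oxidase of the inner ear, was listed at 0 in both. Poldip2, a partner of Nox4, was at 57.1 and 60.0 FPKM, the GTPases Rap1a and Rap1b at 41.7 and 37.1 and at 157 and 129 FPKM, and the proton channel Hvcn1 at 0.530 and 0.360 FPKM.

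Of 22 receptors and signal proteins that act before the oxidase in phagocytes, 19 were lower and none was higher, against the 4.45% of genes of at least 1 FPKM given above. The list was chosen as phagocyte genes with earlier results of these data known, so that the 2 shares side by side are a description and not a test. Their median log2 ratio was −3.46. Tyrobp, an adaptor of activating receptors, was listed at 0 in PU.1 KO from 196 FPKM, at least 377-fold lower with the WT level as measured, with an interval that began at 306-fold. The receptors of bacterial peptides and of complement C5a, Fpr1 and C5ar1, were listed at 0 from 25.3 and 24.4 FPKM. The integrin chains Itgam and Itgb2, which form the complement receptor CR3, went from 24.8 to 0.378 FPKM and from 20.4 to 0.165 FPKM. Arhgdib, which holds Rac GTPases in the cytosol of blood cells, had the smallest ratio of the 19, from 96.6 to 47.0 FPKM. Its WT over PU.1 KO value was 2.05, with an interval of 1.88 to 2.25 that holds the threshold. Arhgdib was also counted among the pan-leukocyte markers above. The interval of Prkcb, also among the 19, was 1.70 to 4.15 and holds the threshold too. Prkcd, Prex1 and Plcg2 were not counted, at 25.3 and 18.4 FPKM, 5.61 and 3.67 FPKM, and 5.23 and 2.64 FPKM. Their WT over PU.1 KO ratios were 1.38 (1.25 to 1.52), 1.53 (1.33 to 1.76) and 1.98 (1.64 to 2.41). The interval of Plcg2 thus holds the threshold, and those of Prkcd and Prex1 leave out both 1 and 2.

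The genes that feed the oxidases and remove their products were not counted as lower or higher. Over all listed genes 4.34% were lower and 2.32% higher, so that these counts are near that share. Of 7 genes for NADPH supply none was called, and 6 were below their WT level, with a median log2 ratio of −0.32. G6pdx, the first enzyme of the pentose phosphate pathway, was at 42.1 and 28.0 FPKM, a WT over PU.1 KO ratio of 1.51 (1.39 to 1.63), and Taldo1 at 131 and 86.2 FPKM, a ratio of 1.52 (1.42 to 1.63). Of 22 genes for removal of superoxide and peroxide none was called, and the log2 ratios of the 21 of at least 1 FPKM ran from −0.56 to 0.22. Sod1, a superoxide dismutase, was at 302 and 311 FPKM, Gpx1, a glutathione peroxidase, at 422 and 430 FPKM, and Prdx1, a peroxiredoxin, at 440 and 369 FPKM. Of the heme peroxidases, Mpo, which turns the peroxide of neutrophils into hypochlorous acid, was at 0.185 and 0.0805 FPKM, Lpo at 0.345 and 0.485 FPKM, and Pxdn, a peroxidase of basement membrane, at 34.9 and 32.6 FPKM. Epx was listed at 0 in both libraries.

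**Figure D4:**
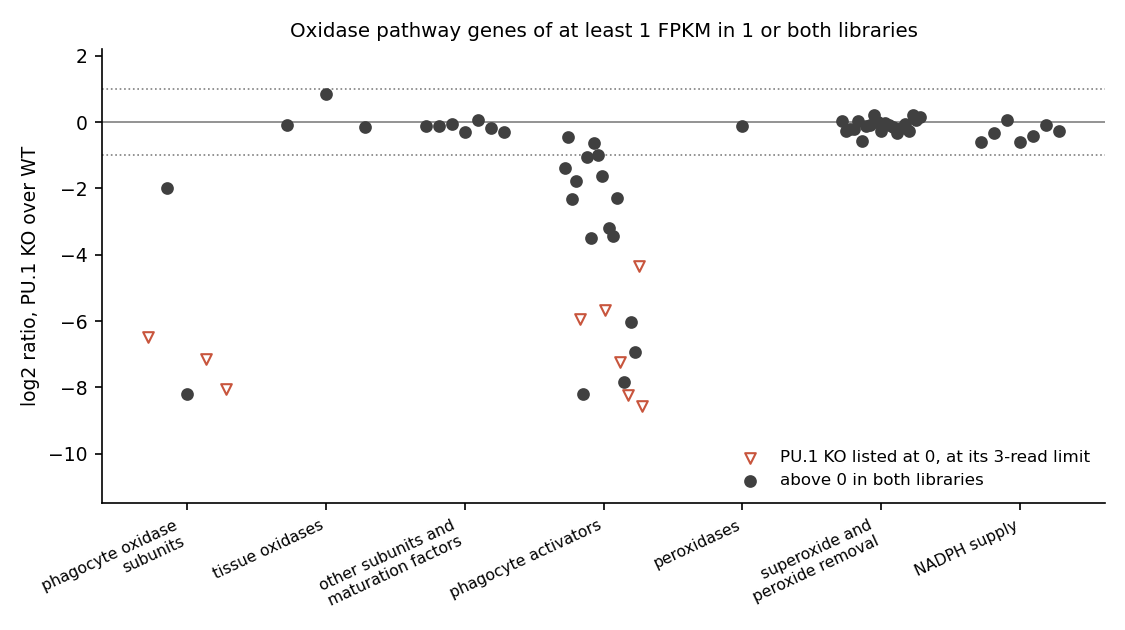
Log2 ratio of PU.1 KO over WT for the listed pathway genes of at least 1 FPKM in 1 or both libraries, 1 point per gene, with open triangles at the limit of 3 reads for genes listed at 0 in the PU.1 KO library. All 5 phagocyte subunits and 19 of 22 activators lie below the dotted line at −1, while the genes for NADPH supply and for superoxide and peroxide removal lie between −1 and 1.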

How the data were processed

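Skin wounds of 1 WT and 1 PU.1 KO library were compared. Per the methods, the authors made stranded mRNA libraries and read 75 bases from single ends, with base calling in CASAVA and mapping to mm10. The submitters' processing notes name TopHat2 2.1.1, Bowtie2 2.2.8, SAMtools 0.1.18 and Cuffdiff 2.2.1, and the methods name Cuffnorm 2.2.1. The authors deposited FPKM values, scaled between the libraries. The annotation, filters and strand setting are not given in the sources used.

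Ratios were taken after raising values below 0.1 FPKM to 0.1, and a ratio of at least 2 was called, across all 24346 genes. The worth of 1 read was the lowest step of FPKM times transcript length less 200 bases, over genes with 1 GENCODE transcript linked to RefSeq and longer than 600 bases. Read numbers used the longest such transcript. The 9 members and all lists were chosen with earlier results of these data known. Named were the members, Spi1, the other subunits of the list, and of each list the called genes of at least 10 FPKM, up to the 6 most abundant in WT. Prkcb, Prkcd, Prex1, Plcg2, G6pdx, Taldo1, Sod1, Gpx1, Prdx1, Mpo, Lpo, Pxdn, Epx, Cxcr2, Mertk, Des, Gtf2ird2, Cstf2 and the markers listed at 0 were named after their values were seen. For members above 0 in both libraries the 2 nearest genes by log2 FPKM were also named. Functions were tested on simulated data. Alternatives of floor, pseudocount, filter, scaling, fold and transcript were run. Analyses used scipy 1.17.1, pandas 2.3.3, matplotlib 3.10.9 and numpy 2.4.6 in Python 3.11.15. No columns of other samples were used. Genes left out of 2 of the lists are not reported here.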

Additional observations from a re-analysis of the deposited data

How the results depend on the processing

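With 1 library per genotype no result has a replicate check, and no paired analysis was possible because each genotype has 1 library. All 5 phagocyte subunits were lower, and 19 of 22 activators within 1.5 times in number, under each of the 8 other settings of floor, pseudocount, filter, scaling and fold. No tissue oxidase was lower under any of them, and 1, Nox4, was higher at a ratio of at least 1.5. Noxa1 made 1 other subunit higher with a floor of 0.01 FPKM. The lower genes among all listed numbered 1778 with a floor of 0.01 FPKM, 463 with a floor of 1 FPKM, 461 with a pseudocount of 1 FPKM, 589 with genes of at least 1 FPKM only, 1867 at a ratio of at least 1.5 and 681 at a ratio of at least 3. The higher genes numbered 1220, 164, 89, 226, 1410 and 150 under the same settings. The fewer genes kept explain the drop under the filter. By the rule itself a lower floor or fold cannot call fewer genes, and a higher one cannot call more. Nor can a pseudocount of 1 FPKM call more genes than the main rule, since any gene it calls is also called with the floor of 0.1 FPKM. The log2 ratio of Cyba stayed between −1.98 and −1.93, while those of genes at or near 0 in PU.1 KO depended on the floor, from −8.55 to −1.91 for Cybb and from −8.21 to −4.47 for Ncf1, and were −2.25 and −4.43 with a pseudocount of 1 FPKM. That of Nox4 went from 0.85 to 0.04 with a floor of 1 FPKM, which lies above its WT value. No called member changed direction. The shortest transcripts, tried after the data were seen, gave Ncf1 about 395 and 1.53 reads. The neutrophil sum without S100a8 and S100a9 was also added after the data were seen. Depth limits Duox2, at about 1 read in each library.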

Other observations

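The genes nearest to each member in both values were named as a description over 2 libraries, which many genes can share by accident. For Cyba they were Plaur, the urokinase receptor, at 119 and 42.1 FPKM, and Retn at 166 and 30.3 FPKM. For Ncf1 they were Mmp8, a collagenase of neutrophils, at 23.1 FPKM and 0, and Ncf4. For Duox1 they were Rom1, at 3.78 and 3.39 FPKM, and Usp45, at 3.72 and 3.41 FPKM, and for Nox1 Zfp157, at 1.36 and 1.28 FPKM, and Zufsp, at 1.37 and 1.28 FPKM. Genes were searched from 1 FPKM in WT, above the WT levels of Nox4 and Duox2. For Nox4 the nearest were Ranbp17 and Zbtb3, at log2 distances of 0.82 and 0.84, and for Duox2 Sirpb1b and Elane, at 3.34 and 3.35.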
